A study of Homo sapiens with 18 samples.

Results

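Apoptosis through the mitochondria is set by a family of proteins that share BCL-2 homology domains. The survival members (MCL1, BCL2, BCL2L1, BCL2L2 and BCL2A1, whose proteins are MCL-1, BCL-2, BCL-xL, BCL-w and BFL-1) hold the pore-forming effectors BAX and BAK in check. The BH3-only members (BMF, BBC3, PMAIP1, BCL2L11 and BID, whose proteins are BMF, PUMA, NOXA, BIM and BID) bind the survival proteins, or the effectors directly, and tip a cell towards death. MCL-1 is a short-lived protein on which many myeloid leukemias depend, and NOXA binds it with preference. Several BH3-only genes are transcribed in response to stress, among them BBC3 and PMAIP1, which are targets of the integrated stress response. These 10 genes were selected by symbol from a table of 45372 gene rows, and all 10 were found in it. The choice was made with earlier results of these data known.

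RNA was sequenced from MV4-11 and THP1 (THP-1), a pair of established human acute myeloid leukemia (AML) cell lines with rearranged KMT2A. Each line was given DMSO, the vehicle, or IACS-010759 (IACS) at 50 nM for 8 h or 24 h, with 3 libraries in each of the 6 groups and 18 in all. IACS inhibits complex I of the mitochondrial respiratory chain. The study asked why blocking mitochondrial respiration makes KMT2A-rearranged AML cells more sensitive to MCL-1 inhibitors, and the transcripts of the survival and BH3-only genes are one layer at which the apoptotic balance could move. Both IACS times of a line were compared with the same DMSO libraries, and the labels do not say at which hour those were collected. Only 1 line stands for each genetic background, so a difference between MV4-11 and THP1 is one between cell lines.

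Values are TPM (transcripts scaled to gene length and to the same total in every library), and so may be set side by side between genes. Both lines carried the myeloid markers LYZ, SPI1, CD33, PTPRC, FCGR1A and CSF1R. CD14 did not pass 0.528 TPM in any library, and ITGAM was at 0.784 to 1.52 TPM in MV4-11 against 18.7 to 27.4 TPM in THP1. The myeloid marker MPO was low, at 3.86 to 7.67 TPM in MV4-11 and 0.728 to 2.52 TPM in THP1. Summed T cell, erythroid and fibroblast markers stayed at or below 0.281 TPM, while B cell markers summed to 0.737 to 2.58 TPM and epithelial markers to 0.0898 to 1.40 TPM. From 39.6% to 60.1% of all TPM came from 5 noncoding RNAs (the signal recognition particle RNAs RN7SL1 and RN7SL2, with RN7SK, RPPH1 and RMRP), a share that lowers the TPM of every other gene in a library. It ranged from 46.3% to 55.8% in THP1 DMSO and reached 60.0% and 60.1% in the THP1 libraries numbered 3 at 8 h and 24 h. The MV4-11 library numbered 3 at 8 h had the lowest share. Tests were made with limma on log2(TPM + 1), for genes whose TPM averaged 1 or more, and a gene was called when its Benjamini-Hochberg adjusted p-value was under 0.05 and its difference over 1.5-fold. A difference on this scale understates that of genes near 1 TPM. Nothing in the labels ties libraries to separate cultures, whereas the methods name independent replicates.

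Among the survival genes MCL1 and BCL2 were the most abundant in both lines. MCL1 was at 83.6, 84.9 and 77.9 TPM in the MV4-11 DMSO libraries and at 155, 145 and 116 TPM in those of THP1. Every THP1 library was above every MV4-11 library. The level was 1.69-fold higher in THP1, a log2 difference of 0.74 (SE 0.14, limma adjusted p = 0.000189). BCL2 was at 75.1, 70.7 and 54.8 TPM in MV4-11 and at 74.0, 65.5 and 45.7 TPM in THP1, where the groups overlapped (log2 difference −0.13, 95% interval −0.57 to 0.32). The libraries numbered 3 were the lowest for BCL2 in both lines. BCL2L1, which gives the anti-apoptotic BCL-xL, was at 13.0 to 16.2 TPM in MV4-11 and 11.9 to 14.1 TPM in THP1 (−0.10, interval −0.40 to 0.20).

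BCL2L2 was higher in all 3 THP1 libraries, at 14.7 to 21.1 TPM against 11.3 to 13.7 TPM. Its log2 difference of 0.50 (SE 0.19, limma adjusted p = 0.0379) passed the test but not the 1.5-fold requirement. BCL2L2 (14:23298790-23311751 in GENCODE v44, GRCh38, plus strand) overlaps the read-through gene BCL2L2-PABPN1 (14:23306833-23326175), so reads could have been split between them. BCL2A1, an NF-κB target in many blood cells, was listed at 0 in 10 of the 18 libraries and reached 0.412 TPM at most. It did not pass the filter on low values and is described by its level alone.

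**Figure D1:**
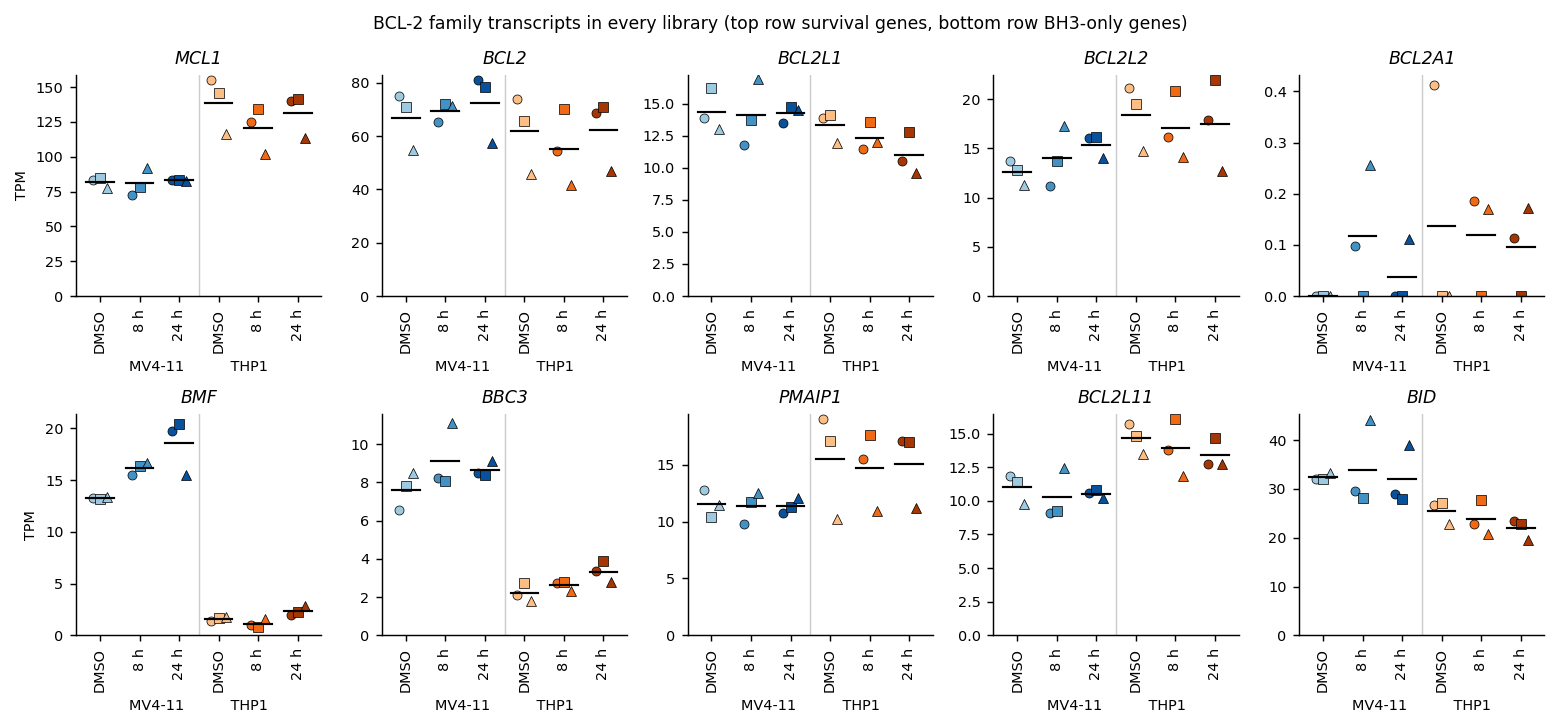
TPM of each member (vertical axis of each panel, from 0) in the 18 libraries by line and treatment; circles, squares and triangles are the libraries numbered 1, 2 and 3, and bars are group means. BMF and BBC3 sit far lower in THP1 and MCL1 sits higher, while most members overlap between DMSO and IACS within a line.

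The largest differences between the lines lay in BMF and BBC3. BMF, a BH3-only gene whose protein is released from the cytoskeleton under stress, was at 13.3, 13.2 and 13.4 TPM in MV4-11 DMSO and at 1.41, 1.67 and 1.75 TPM in THP1. The groups were far apart, with an 8.25-fold lower mean in THP1. The log2 difference was −2.45 (SE 0.14, limma adjusted p = 4.61e-11). BBC3, which encodes PUMA, was at 6.54, 7.80 and 8.48 TPM in MV4-11 and at 2.10, 2.73 and 1.81 TPM in THP1. This was a 3.44-fold lower mean (log2 difference −1.43, SE 0.15, limma adjusted p = 1.98e-07), again with no overlap.

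The promoters of these genes are shown as they are the members with the widest gap between the lines. They come from RefSeq (GRCh38.p14) and run from 250 bases before to 50 bases after an annotated start. Of the 10 members 8 have an entry there (not MCL1 and BCL2L2). Capitals mark matches on either strand to the CCAAT box CCAAT, the GC box GGGCGG or the E-box CACGTG. BMF has a second annotated start, whose promoter holds none of these letters.
BMF (chr15:40108830-40109129, minus strand): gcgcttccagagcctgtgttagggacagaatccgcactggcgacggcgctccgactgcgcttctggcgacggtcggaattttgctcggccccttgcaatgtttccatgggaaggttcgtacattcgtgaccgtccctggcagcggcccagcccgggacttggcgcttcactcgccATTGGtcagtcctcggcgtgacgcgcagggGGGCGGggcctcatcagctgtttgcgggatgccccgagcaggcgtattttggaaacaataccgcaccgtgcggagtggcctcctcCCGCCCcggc
BBC3 (chr19:47232618-47232917, minus strand): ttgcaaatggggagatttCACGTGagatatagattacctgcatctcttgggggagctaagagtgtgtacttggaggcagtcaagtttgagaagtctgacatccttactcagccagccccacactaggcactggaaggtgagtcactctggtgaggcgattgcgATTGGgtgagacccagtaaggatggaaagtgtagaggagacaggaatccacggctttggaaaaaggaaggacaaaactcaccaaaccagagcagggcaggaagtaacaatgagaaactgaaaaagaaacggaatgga
A CCAAT box is in both windows and in 34.6% of the 35116 promoters of the table. The GC box occurs 2 times in BMF and 0 times in BBC3, and is found in 45.0% of all promoters. BBC3 has 1 E-box, a motif held by 7.26% of promoters. Neither window holds the C/EBP-ATF response element TGATGNAAN (3.61% of promoters), the forkhead site TGTTTAC (3.42%) or the cyclic AMP response element TGACGTCA (1.85%). A match is a run of letters only, and no binding was measured here.

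The other 3 BH3-only members were closer between the lines. BCL2L11, which encodes BIM, was at 9.74 to 11.9 TPM in MV4-11 and 13.5 to 15.7 TPM in THP1. These groups did not overlap, but the log2 difference of 0.39 (SE 0.14, limma adjusted p = 0.0252) was under 1.5-fold. PMAIP1, the NOXA gene, was at 12.8, 10.4 and 11.5 TPM in MV4-11 and at 19.0, 17.1 and 10.3 TPM in THP1. The third THP1 library fell below all MV4-11 libraries, and the difference was not called (0.35, interval −0.08 to 0.79). BID, which links death receptors to mitochondria, was the most abundant of the BH3-only members. It was at 32.0 to 33.3 TPM in MV4-11 and 22.8 to 27.2 TPM in THP1 (−0.34, SE 0.17, limma adjusted p = 0.102). BIK, a BH3-only gene outside the members, was at 19.9 to 31.8 TPM in MV4-11 DMSO and 47.5 to 64.9 TPM in THP1 DMSO.

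In all, 9 members were tested between the DMSO groups and 3 were called, 1 higher and 2 lower in THP1. Over all 14117 genes tested, 36.9% were called, so the share of members called is near the background of these cell lines. The members with all THP1 libraries above all MV4-11 libraries were MCL1, BCL2L2 and BCL2L11, against 29.8% of all genes, and those with all below were BMF, BBC3 and BID, against 30.9%. Without the THP1 DMSO library numbered 3, the count rose to 5, as BCL2L2 (0.65, adjusted p = 0.0147) and PMAIP1 (0.60, adjusted p = 0.0150) passed as well. Approximate read numbers, from the smallest step in TPM times exon length, were 5029 to 6320 per library for MCL1 in MV4-11. They were 748 to 1083 for BMF in MV4-11 and only 40 to 215 in THP1, and 58 to 122 for BBC3 in THP1.

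**Figure D2:**
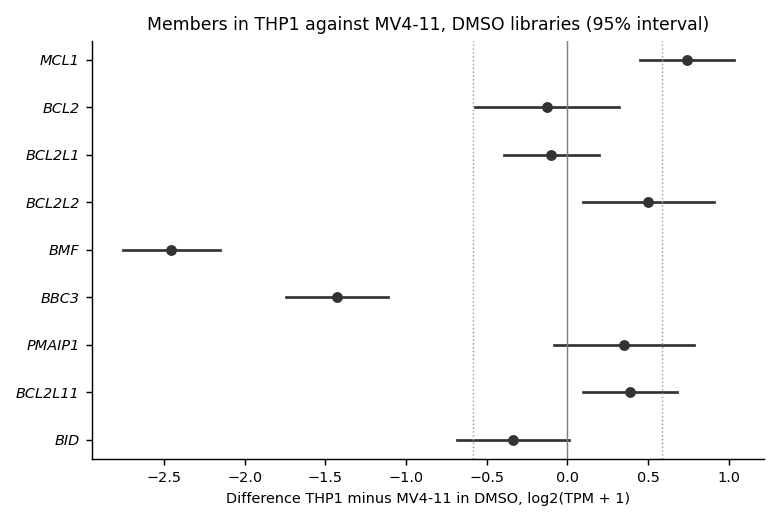
Difference of each tested member between THP1 and MV4-11 in DMSO on log2(TPM + 1) (horizontal axis), with 95% intervals from limma, 3 libraries per line; dotted lines mark 1.5-fold. BMF at −2.45 and BBC3 at −1.43 lie far left of the dotted line and MCL1 at 0.74 to the right of it.

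The sums of the groups differed in make-up as well as in size. The summed TPM of the survival genes was 176 ± 16.5 in MV4-11 DMSO and 233 ± 39.2 in THP1 DMSO (SD, n = 3), and that of the BH3-only genes 75.9 ± 0.930 and 59.5 ± 8.19. The ratio of survival to BH3-only transcripts was 2.44, 2.47 and 2.06 in the MV4-11 DMSO libraries and 4.07, 3.85 and 3.77 in those of THP1. All THP1 libraries, treated or not, had a higher ratio than any MV4-11 library. The sums hold the chosen members only. Left out are the BH3-only genes BIK (DMSO means 24.3 TPM in MV4-11 and 57.9 TPM in THP1) and BAD (12.3 and 16.9 TPM). The survival gene BCL2L10 (DMSO means 16.2 and 0.0746 TPM) is left out too. In THP1 DMSO the BIK mean alone, at 57.9 TPM, was close to the whole BH3-only sum of 59.5 TPM. A ratio with these genes was not computed. The higher ratio in THP1 is therefore shown for the chosen members alone, and need not hold for the whole family. This ratio weighs every transcript alike and says nothing of protein or of binding.

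MCL1 made up 46.8% ± 2.49 of the survival sum in MV4-11 DMSO and 59.9% ± 1.57 in THP1 DMSO. The MCL1 to BCL2 ratio was 1.24 ± 0.159 and 2.28 ± 0.233. BMF was 17.5% ± 0.160 of the BH3-only sum in MV4-11 and 2.77% ± 0.670 in THP1 (SD, n = 3), and BBC3 held 8.55% to 11.1% and 3.23% to 4.30% of it. BID held nearly the same share of the BH3-only sum in both lines, 42.7% ± 0.846 and 43.1% ± 2.22. Per 100 MCL1 transcripts there were 16.2 ± 0.858 of BMF in MV4-11 and 1.19 ± 0.298 in THP1.

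**Figure D3:**
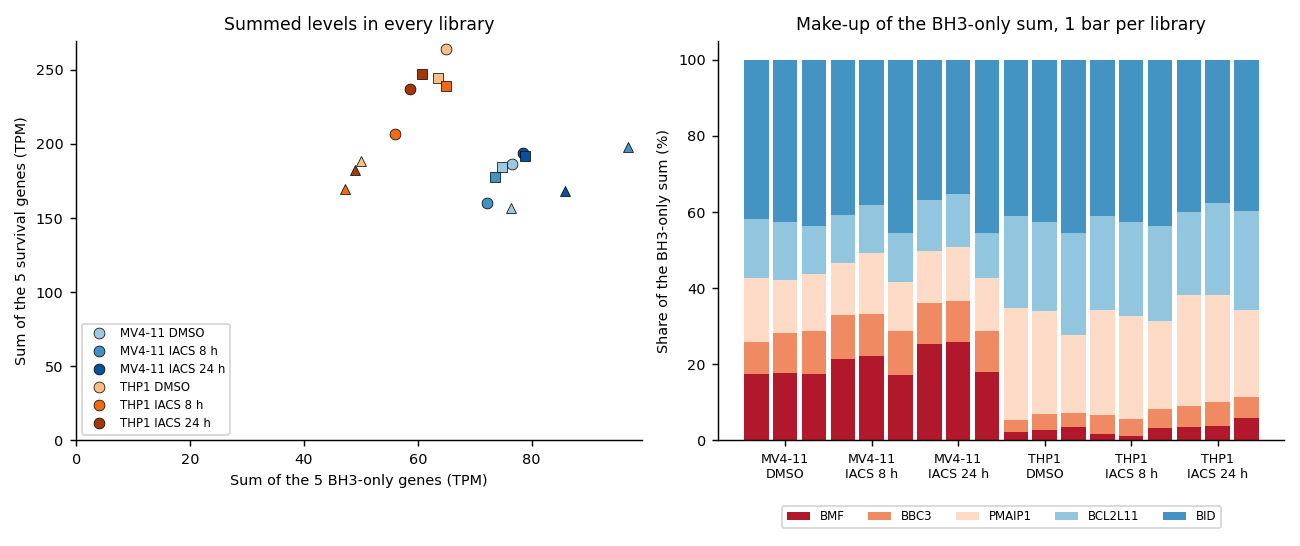
Left, summed TPM of the 5 survival genes against that of the 5 BH3-only genes in each library (circles, squares and triangles are libraries 1, 2 and 3); right, share of the BH3-only sum held by each gene, 1 bar per library. The lines form separate clouds, and BMF fills 17.2% to 25.9% of the sum in MV4-11 against 1.24% to 5.81% in THP1.

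After 8 h of IACS no member was called in MV4-11 or in THP1. With limma, 1 of the 9 tested members had an unadjusted p under 0.05 in MV4-11 and 0 in THP1, where 4.39% and 2.11% of all genes did. The share of all genes called with limma was 0.0148% in MV4-11 and 0.0144% in THP1. The Kruskal-Wallis test with Dunn's test, on unadjusted p-values, called 0 members in either line. It ranks all 9 libraries of a line together, and does not call 2 groups that are fully apart but next to each other in rank. A gene that rose from DMSO through 8 h to 24 h could thus not be called at 8 h. This limit holds for every comparison made with this test. At 8 h the Kruskal-Wallis test with Dunn's test called 9 of 13542 genes in MV4-11 and 6 of 13928 in THP1. The median log2 difference of all genes was 0.06 in MV4-11 and −0.12 in THP1, and that of the 9 members 0.04 and −0.11.

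MCL1 stood at 72.3, 78.2 and 91.9 TPM in MV4-11 at 8 h and at 125, 134 and 102 TPM in THP1. Both sets overlapped their DMSO libraries, with log2 differences of −0.03 (interval −0.28 to 0.22) and −0.20 (interval −0.55 to 0.14). BCL2 was at 65.1 to 72.1 TPM in MV4-11 and 41.5 to 70.0 TPM in THP1. BCL2L1 and BCL2L2 also overlapped DMSO in both lines, with differences from −0.11 to 0.13.

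BMF lay on opposite sides of its DMSO mean in the 2 lines at 8 h. In MV4-11 it was at 15.5, 16.4 and 16.7 TPM, above all 3 DMSO libraries, as were 7.13% of all genes (log2 difference 0.27, SE 0.12, unadjusted p = 0.0461 and adjusted p = 0.982 with limma). In THP1 it was at 0.981, 0.804 and 1.53 TPM, and the third library lay within the DMSO range (−0.32, SE 0.18, limma adjusted p = 0.941). BBC3 was at 8.21, 8.06 and 11.1 TPM in MV4-11 and at 2.73, 2.79 and 2.31 TPM in THP1. Both sets overlapped DMSO, with differences of 0.23 (interval −0.08 to 0.53) and 0.18 (interval −0.19 to 0.54). PMAIP1, BCL2L11 and BID differed by −0.10 to 0.04 in MV4-11 and by −0.11 to −0.05 in THP1, every interval including 0.

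The change in THP1 minus that in MV4-11 was tested across both lines. At 8 h it was −0.59 for BMF (SE 0.20, interval −1.02 to −0.16, unadjusted p = 0.00942, adjusted p = 0.910 with limma), and this was the 1 member with an unadjusted p under 0.05, as for 3.16% of all genes. No member was called at 8 h or at 24 h, and 0.00708% of all genes were called at either time. At 24 h 0 members had an unadjusted p under 0.05, against 7.10% of all genes, and the difference for BMF was −0.08 (interval −0.51 to 0.35).

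After 24 h of IACS again no member was called in either line, where the share of all genes called was 0.0886% for MV4-11 and 0.0431% for THP1. One member in each line had an unadjusted p under 0.05 with limma, BMF in MV4-11 and BBC3 in THP1, where 12% and 8.61% of all genes did. The Kruskal-Wallis test with Dunn's test called 0 members in either line, and 55 of 13542 genes in MV4-11 and 23 of 13928 in THP1. The median over all genes was 0.08 in MV4-11 and −0.12 in THP1, and over the 9 members 0.02 and −0.07.

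MCL1, the gene of the protein that the study targeted, was at 83.5, 83.0 and 82.4 TPM in MV4-11 at 24 h. These libraries lay inside the DMSO range and the log2 difference was 0.02 (interval −0.23 to 0.27). In THP1 MCL1 was at 140, 142 and 113 TPM, overlapping DMSO (−0.07, interval −0.42 to 0.27). BCL2 was at 81.1, 78.3 and 57.3 TPM in MV4-11 and at 68.8, 71.0 and 46.9 TPM in THP1, with the library numbered 3 the lowest as in DMSO. The differences were 0.11 (interval −0.24 to 0.45) and 0.01 (interval −0.49 to 0.52).

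BCL2L1 in MV4-11 was at 13.5 to 14.8 TPM, inside the DMSO range (−0.01, interval −0.31 to 0.29). In THP1 it was at 10.6, 12.8 and 9.58 TPM against 13.9, 14.1 and 11.9 TPM in DMSO. The groups overlapped and the difference of −0.26 had an interval of −0.59 to 0.07. BCL2L2 in MV4-11 was at 16.0, 16.1 and 14.0 TPM against 13.7, 12.8 and 11.3 TPM, so that all 3 treated libraries were higher (0.27, SE 0.15, limma adjusted p = 0.497). Its read-through neighbour BCL2L2-PABPN1 was at 4.59, 8.43 and 13.2 TPM in these libraries and at 2.74, 2.45 and 1.03 TPM in THP1 at 24 h, and the part of such reads in the BCL2L2 values was not tested.

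BMF in MV4-11 reached 19.8, 20.4 and 15.5 TPM at 24 h against 13.2 to 13.4 TPM in DMSO. All 3 libraries were higher, and the mean was 1.40-fold that of DMSO. The log2 difference of 0.44 (SE 0.12) had an unadjusted p of 0.00299 and a limma adjusted p of 0.172. BCL2L2 and BMF were the members with all MV4-11 libraries above DMSO, which held for 19.4% of all genes. In THP1 BMF was at 1.99, 2.29 and 2.85 TPM, 1.47-fold the DMSO mean and above all DMSO libraries (0.36, SE 0.18, limma adjusted p = 0.582).

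BBC3 in THP1 was at 3.35, 3.89 and 2.77 TPM at 24 h against 2.10, 2.73 and 1.81 TPM in DMSO. The lowest treated library lay just above the highest DMSO library, and the mean was 1.51-fold higher. The log2 difference was 0.43 (SE 0.17, unadjusted p = 0.0247, limma adjusted p = 0.539). When same-numbered THP1 libraries were paired through a replicate block, the limma adjusted p was 0.0360 at the same difference. That difference is still under 1.5-fold on this scale. The block pairs all 3 THP1 groups, and the pairing was inferred from these data. For 8 h with DMSO the correlations of same-numbered libraries were 0.0440, 0.139 and 0.479, so that pair missed the requirement of 0.1. With TPM recomputed without the 5 noncoding RNAs, BBC3 was called in THP1 at 24 h (0.63, limma adjusted p = 0.0442), as were 0.668% of all genes. Its adjusted p over all the alternatives ran from 0.0204 to 0.999. BMF and BBC3 were the members with all THP1 libraries above DMSO, against 3.32% of all genes.

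In MV4-11 BBC3 was at 8.50, 8.40 and 9.10 TPM at 24 h, overlapping DMSO at the highest control library (0.17, interval −0.13 to 0.48). PMAIP1 was at 10.8 to 12.1 TPM in MV4-11 and at 11.2 to 17.1 TPM in THP1, with differences of −0.02 (interval −0.29 to 0.25) and −0.01 (interval −0.55 to 0.52). BCL2L11 gave −0.05 and −0.13, and BID −0.04 and −0.21, each with an interval that included 0. BID in MV4-11 spread from 27.9 to 39.0 TPM at 24 h, with the library numbered 3 the highest.

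**Figure D4:**
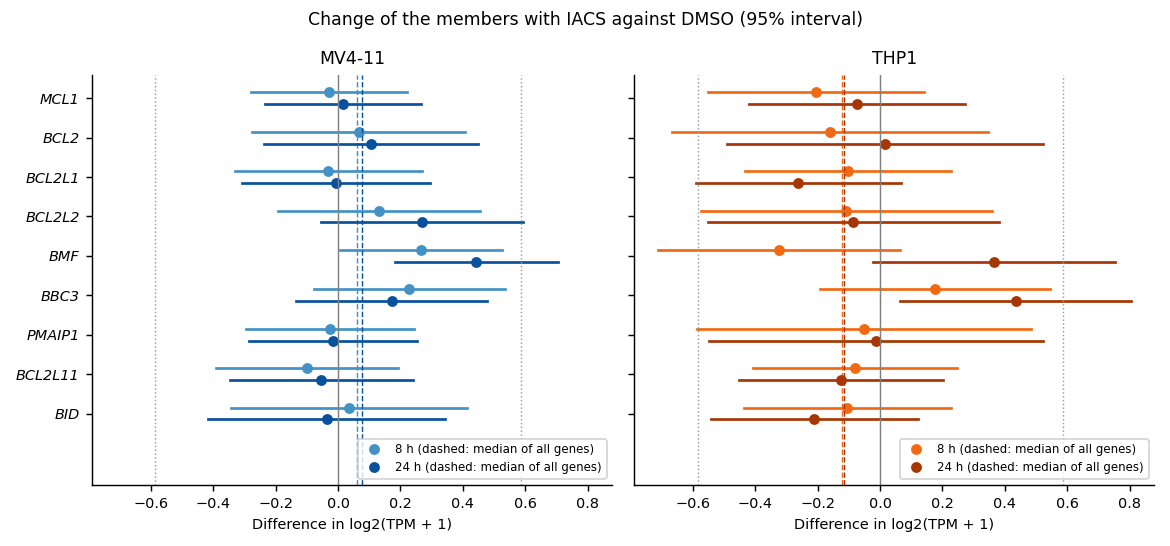
Difference from DMSO on log2(TPM + 1) (horizontal axis) with 95% intervals from limma for the 9 tested members, at 8 h and 24 h, in MV4-11 (left) and THP1 (right), 3 libraries per group; dashed lines are the median over all genes and dotted lines 1.5-fold. The interval leaves out 0 for BMF in MV4-11 at both times and for BBC3 in THP1 at 24 h, and no point lies past a dotted line.

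Between the IACS times no member was called in MV4-11 (0% of all genes called) or in THP1 (0.00718%). With limma 0 members in MV4-11 had an unadjusted p under 0.05, against 2.3% of all genes, and 1 in THP1, against 4.99%. The member in THP1 was BMF, which was at 0.981, 0.804 and 1.53 TPM at 8 h and at 1.99, 2.29 and 2.85 TPM at 24 h. All 3 libraries at 24 h were above all 3 at 8 h, as for 5.11% of all genes, and the mean was 2.15-fold higher. Without pairing the log2 difference of 0.69 (SE 0.18) had a limma adjusted p of 0.413. With the replicate block, by which same-numbered libraries are paired, the limma adjusted p was 0.0286 and BMF was called, as were 0.818% of all genes. The limit on this pairing given above for BBC3 applies here too. Over all the alternatives the adjusted p of BMF ran from 0.0180 to 1.00. The Kruskal-Wallis test with Dunn's test, on unadjusted p-values, called BMF too, as it did 0.136% of all genes. It called 0 members in MV4-11, and 3 of 13542 genes. BMF read numbers in these THP1 libraries were low, as given above.

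The ratio of survival to BH3-only transcripts in MV4-11 was 2.32 ± 0.230 in DMSO, 2.23 ± 0.187 at 8 h and 2.29 ± 0.286 at 24 h (SD, n = 3), with ranges that overlapped. In THP1 the ratio was 3.90 ± 0.158, 3.65 ± 0.0615 and 3.95 ± 0.194. The 3 THP1 libraries at 8 h, at 3.58 to 3.70, lay below all DMSO libraries, at 3.77 to 4.07, and those at 24 h overlapped them. No test was made on the ratio, which is a description. Per 100 MCL1 transcripts, BBC3 in THP1 was at 1.35 to 1.88 in DMSO, 2.07 to 2.27 at 8 h and 2.39 to 2.75 at 24 h, 3 ranges that did not overlap. In MV4-11 the same measure was 7.83 to 10.9, 10.3 to 12.1 and 10.1 to 11.0. BMF per 100 MCL1 in MV4-11 was 15.6 to 17.2, then 18.2 to 21.5 and 18.8 to 24.6, so that both IACS groups lay above DMSO. In TPM, BBC3 in THP1 overlapped DMSO at 8 h. The share of all genes that would separate in this way was not computed for any of these ratios, which are descriptions.

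Most members rose and fell together from library to library within a line. After each line's mean was subtracted, log2(TPM + 1) of MCL1 had a Pearson correlation over the 18 libraries of 0.82 with BCL2, 0.84 with BCL2L2, 0.86 with PMAIP1 and 0.77 with BCL2L11. The libraries share their scaling, including the share of the 5 noncoding RNAs, and these values are given as a description. BMF and BBC3 stood outside this pattern, at −0.06 and 0.34 with MCL1. Of 8844 genes averaging 5 TPM or more in each line, NUDT3, ZNF263 and BORA had the patterns most like that of MCL1, with correlations of 0.97, 0.97 and 0.96.

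The effectors and remaining family genes, of which 10 of 14 were tested, showed 2 called higher and 4 lower in THP1 DMSO. Of all genes tested, 36.9% were called. BAX, which forms the mitochondrial pore, was at 90.9 TPM on average in MV4-11 and 28.7 TPM in THP1, 3.16-fold lower (log2 difference −1.64, SE 0.17, limma adjusted p = 2.11e-07). BAK1, which does the same, was 1.44-fold higher in THP1 and not called. The BAX to BAK1 ratio was accordingly 2.90 ± 0.273 in MV4-11 and 0.634 ± 0.0463 in THP1 (SD, n = 3). BNIP3, a mitophagy receptor, had the largest difference towards THP1 (1.91), and BCL2L10, a survival gene, the largest towards MV4-11 (−3.99), with 13.3 to 17.6 TPM there and at most 0.157 TPM in THP1. The median of the list was −0.02, against 0.01 for all genes.

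Of the apoptosome, caspase and inhibitor genes 13 of 14 were tested, with 3 higher and 1 lower in THP1 and a median of −0.02. The share of all genes called, 36.9%, is the background for each list here. CASP6, an executioner caspase, was lowest in THP1 against MV4-11 (−0.76). Among the death receptors and ligands, all 6 of them tested, 1 was higher and 4 were lower, with a median of −0.83. TNFSF10, the ligand TRAIL, had the largest value (0.64) and TNFRSF10B, one of its receptors, the smallest (−2.42). Of the genes that control MCL-1 turnover, 9 of 10 tested, 3 were higher and 0 lower with limma, and 4 and 0 had an unadjusted p under 0.05. CDC20, an activator of the anaphase-promoting complex, was highest (2.32) and HUWE1, a ubiquitin ligase of MCL-1, lowest (−0.06, adjusted p = 0.745).

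Upstream transcription factors, 14 of 16 tested, gave 4 higher and 3 lower in THP1, with a median of −0.22, where 36.9% of all genes were called. TP73 was highest (1.38). None of the genes of these 5 lists was called against DMSO at either time in either line with limma. DDIT3, the stress factor CHOP, was the largest of the transcription factors at 8 h in MV4-11 (0.60, unadjusted p = 0.00842, adjusted p = 0.982) and THP1 (0.71, adjusted p = 0.941) and after 24 h in MV4-11 (0.55, adjusted p = 0.283). ATF4, the main factor of the integrated stress response, was the largest in THP1 at 24 h (0.54, adjusted p = 0.563). The smallest were E2F1 (−0.15) and NFKB1 (−0.09) in MV4-11, and TP73 in THP1 (−0.36 and −0.51).

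CYCS, cytochrome c, was the lowest of its list at 24 h in MV4-11 (−0.37, unadjusted p = 0.0328, adjusted p = 0.360 with limma) and in THP1 (−0.40, unadjusted p = 0.0384, adjusted p = 0.556). It lay below all DMSO libraries in both, as did 712 of 13542 genes in MV4-11 and 1417 of 13928 in THP1. BCL2L2-PABPN1 was the highest effector-list gene in MV4-11 at 24 h (0.55) and the lowest in THP1 (−1.05, unadjusted p = 0.00411, adjusted p = 0.421). Of the MCL-1 turnover genes, FBXW7 was highest (0.19 and 0.20) and CDC20 lowest (−0.32 and −0.21) in MV4-11 at 8 h and 24 h, while USP9X was highest (−0.09 and 0.04) in THP1, where BTRC (−0.23) and DESI1 (−0.28) were lowest. At 8 h BNIP3L (0.21) and BCL2L12 (−0.27) bounded the effector list in MV4-11, and BOK (0.12) and BCL2L2-PABPN1 (−0.29) in THP1. BAD was the lowest effector-list gene in MV4-11 at 24 h (−0.05) and BNIP3L the highest in THP1 (0.0020). Of the caspase list BIRC2 (0.23) and BIRC5 (−0.22) were the extremes in MV4-11 at 8 h, CASP9 (−0.05) and CFLAR (−0.27) in THP1 at 8 h, and BIRC2 (0.14) was the highest in THP1 at 24 h. The death receptor genes ranged from −0.31 (TNFSF10 in THP1 at 8 h) to 0.22 (FAS in MV4-11 at 8 h). At 24 h they lay between TNFRSF10A (−0.10) and TNFRSF10B (0.16) in MV4-11 and between TNFSF10 (−0.26) and TNFRSF10A (0.17) in THP1.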

How the data were processed

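RNA was extracted with a column kit and DNase, made into libraries with TruSeq RNA kits and sequenced as paired reads. The authors trimmed the reads, mapped them to GRCh38 in CLC Genomics Workbench and deposited TPM per gene, a unit that divides by gene length and scales each library to the same total; the strand setting is not given in the sources used here. The depth is not in the table. Read numbers were estimated from the smallest step of TPM times exon length (GENCODE v44), and 81.8% to 83.6% of low values were within 0.05 of whole reads by library. TPM values were tested as log2(TPM + 1) with limma 3.58.1 (R 4.3.3), with a variance trend, in 1 fit per line over its 9 libraries, and in 1 fit over all 18 for comparisons between lines. Genes averaging 1 TPM or more entered. The analysis was run on simulated data with noise drawn separately for each gene. Shifts shared by all genes of a library were not simulated, so that run does not cover them.

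Replicate numbers were taken to pair libraries where deviations from the group means correlated above 0.1 in all 3 pairs. This held for THP1 24 h with DMSO (0.146, 0.157 and 0.324), THP1 24 h with 8 h (0.183, 0.277 and 0.357) and MV4-11 24 h with 8 h (0.110, 0.408 and 0.441), from the data and not from the labels. For the other 3 pairs of groups at least 1 correlation was below 0.1.

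Alternatives were a pseudocount of 0.1, other filters, median-of-ratios scaling, TPM without 5 noncoding RNAs, a replicate block, no variance trend, the Kruskal-Wallis and Dunn's test, and leaving out each library. Members and gene lists were chosen with earlier results of these data known. Named outside the members are the extremes of each list, some of which are not reported here, and the 3 genes most like MCL1.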

Additional observations from a re-analysis of the deposited data

Results flagged for a closer look

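BMF was flagged because, at 8 h of IACS, all 3 MV4-11 libraries were above the DMSO mean of their line and all 3 THP1 libraries were below that of theirs. The change in THP1 minus that in MV4-11 was −0.59 on log2(TPM + 1) (SE 0.20, unadjusted p = 0.00942, limma adjusted p = 0.910 over 14117 genes), so this difference did not pass the test across all genes. The BMF values in THP1 rest on 40 to 215 reads per library, and the median of all genes differed in the same direction, by −0.17. Groups of 3 libraries are too small for a search for outlying libraries.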

How the results depend on the processing

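Between the lines 3 members were called, as were 5211 of all 14117 genes. The count was 1 when genes had to reach a mean of 10 TPM (BMF and BBC3 were then not tested), where 2418 of 7663 genes were called. It was 3 to 5 when 1 library was left out, with 5077 to 5357 genes called. The count was 4 with TPM recomputed without the 5 noncoding RNAs (BCL2L2 added, 0.59) and 4 with libraries 1 and 2 alone (PMAIP1 added, 0.60). These alternatives called 5577 of 14112 and 5316 of 14115 genes. The 4 comparisons with DMSO, that of the IACS times in MV4-11 and the difference between lines at 24 h called 0 members under every alternative tried, with the exception of 1 member (BBC3, THP1 at 24 h) when TPM was recomputed without the 5 noncoding RNAs. Between the IACS times in THP1, 1 member (BMF) was called with the replicate block, as were 114 of 13928 genes. BMF was also called with the replicate block and median-of-ratios scaling (131 genes), with an unadjusted p (166) and with the Kruskal-Wallis and Dunn's test (19). For the difference between lines at 8 h, an unadjusted p called 1 (BMF), and 216 of 14117 genes. The replicate block changed no other call. Leaving out BCL2A1 and BID moved the mean survival to BH3-only ratio to 4.05, 3.80 and 3.76 in MV4-11 (DMSO, 8 h and 24 h) and to 6.84, 6.34 and 6.48 in THP1, by construction.

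Over 1767 recomputed differences of single members, 159 changed sign, of which 158 had intervals that included 0 before and after, with sizes up to 0.18 before and 0.25 after. The other was BID in MV4-11 at 8 h, −0.15 with libraries 1 and 2 alone, an alternative chosen after seeing the data, against 0.04 with all libraries. The cause was not tested. MCL1, BMF and BBC3 kept their direction between the lines in every alternative in which they were tested. Genes near 1 TPM, such as BMF in THP1, have few reads behind them, and TPM gives no counting error.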
